A study of Homo sapiens with 24 samples.

Results

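The transcripts described here are those of 42 core components of the human spliceosome: the proteins of the small nuclear ribonucleoproteins (snRNPs) U1, U2, U4/U6 and U5, the factors that recognise the branch point and the 3′ splice site with U2, and 2 factors that act around them. They are the rows of the deposited count table whose Ensembl identifiers carry the 42 listed gene symbols, among 60668 rows in all. Each symbol had a row, and all 42 were among the 22158 genes tested, with between 1068 and 91400 counts per library. RNA was sequenced from MCF-10A, an immortalised, non-tumorigenic line of human breast epithelium, and from its derivative MYC-ER, in which the transcription factor MYC is fused to the ligand-binding domain of the oestrogen receptor. Such a fusion stays inactive until 4-hydroxytamoxifen (4-OHT) binds it, so the parental line, labelled wild-type, received the drug without the fusion. Both lines grew in three-dimensional culture on Matrigel, from 10000 cells per well, with 1 µM 4-OHT for 0, 8, 24 or 48 h before all were collected on day 5. Each of the 8 groups has 3 libraries, 24 in all. The promoter that drives the fusion, and whether the line is 1 clone, are not given in the sources used here. Both lines at 0 h also went through the full culture, without the drug.

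The spliceosome is assembled anew on each intron. U1 binds the 5′ splice site, the U2AF pair reads the 3′ splice site, and U2, through its SF3A and SF3B subcomplexes, binds the branch point. The U4/U6.U5 tri-snRNP then joins and is remodelled by helicases before the reaction. U1, U2, U4 and U5 are each built on a ring of 7 Sm proteins, and U6 on a ring of 7 LSm proteins. Cells with activated MYC are known for their dependence on core splicing, and several snRNP genes are described as MYC targets.

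Totals ran from 136860029 to 182438505 counts per library. The limit that a count of 0 allows, 3 counts, corresponds to 0.0219 per 1000000 of the unscaled total in the smallest. CPM elsewhere are counts per 1000000 of the library total after TMM scaling, and limits cover counting error alone. The 7 epithelial markers were detected in all libraries, CD3E and CDH5 were at 0 in all, and PTPRC had at most 2 counts in any library. MYC read 378 to 394 CPM in MYC-ER at 0 h and 793 to 797 at 8 h. It then read 312 to 329 CPM at 24 h and 244 to 253 at 48 h. Parental libraries held 462 to 599 CPM of MYC at 0 h and 443 to 556 at later times. ESR1 had at most 96 counts in any library. Whether these 2 rows count transcripts of the fusion was not tested. The MYC-ER libraries at 0 h stood apart in several measures, which bear on each comparison with them. Counts of mitochondrial genes took 9.24 to 9.71% of the total there against 3.86 to 7.78% in the other 21 libraries. The summed level of 4 fibroblast markers, of which COL1A2 had at most 9 counts in any library, was 369 to 377 CPM there against 79.7 to 129.9 CPM at the later MYC-ER times. COL1A1 (212 to 220.4 CPM against 54 to 80.9 later) and DCN (156 to 157 against 21 to 51.3) made up nearly all of that sum, while PDGFRB ran from 0.654 to 0.839 CPM against 0.709 to 1.65 later. Among the epithelial markers 4 were lower at MYC-ER 0 h than in every other library. EPCAM was at 1.73 to 2.16 CPM there against at least 5.64 elsewhere and 22.2 to 77.8 at the later MYC-ER times. ITGB4 was at 640.1 to 661 CPM against at least 992, KRT14 at 603 to 650.3 against at least 885 and KRT17 at 313 to 331 against at least 483. KRT5 was higher there than at the later MYC-ER times, at 12352 to 12799 CPM against 6763 to 10532. TP63 (138 to 143 CPM) and CDH1 (137 to 144) lay within the range of the other 21 libraries. The part of any of these in the results below was not tested. Nothing in the labels says that replicates came from separate cultures beyond the wells seeded in triplicate, so p-values measure the spread between these samples, which may be technical. In bulk RNA, fewer cells of a type and less RNA per cell cannot be told apart.

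Core spliceosome transcripts rose together within 8 h of 4-OHT in the MYC-ER line and had returned most of the way by 48 h. By edgeR's quasi-likelihood test with Benjamini-Hochberg adjustment over all 22158 genes, 37 of 42 were higher at 8 h than at 0 h, against a background of 32.2% of all genes called higher. Lower calls numbered 2, SNRNP70 and SF3B1 (background 35.4%). SNRPA1 of U2 rose most, by 1.97 on the log2 scale (SE 0.0612, adjusted p 3.05e-17). Next came SNRPD1 at 1.95 and SNRPB at 1.54, both of the Sm ring. At 24 h again 37 were higher (background 30.4%) and 4 were lower (background 31.2%): SNRNP70, SF3B1, PRPF6 and PRPF3. At 48 h the higher calls numbered 20 (background 23.4%) and the lower calls 6 (background 20.7%). The median log2 change of the 42 went from 0.76 at 8 h to 0.65 at 24 h and 0.13 at 48 h, while that of all genes tested was -0.10, -0.02 and 0.03. A change of 2-fold or more upwards was reached by 12, 15 and 1 members at the 3 times, and by 15.1%, 15.2% and 10.5% of all genes.

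Counts of libraries that do not overlap, made without a fitted model on the same scaled libraries, were close to the calls at 8 and 24 h. At 8 h all 3 libraries of 38 members lay above all 3 at 0 h, and those of 2 lay below, where 34.4% and 39.1% of all genes did so. At 24 h the counts were 37 above (34.2% of all genes) and 4 below (36.4%). At 48 h they were 22 above (31.9%) and 12 below (30.4%), where the fit called 20 higher and only 6 lower. Together the 42 genes took 0.402% ± 0.003 of the counts in the MYC-ER line before 4-OHT, then 0.534% ± 0.005, 0.582% ± 0.002 and 0.447% ± 0.003 after 8, 24 and 48 h (SD, n = 3 each). In the parental line the share was 0.503% ± 0.018 at 0 h and 0.479% ± 0.006, 0.483% ± 0.007 and 0.477% ± 0.006 at the later times (SD, n = 3 each). The MYC-ER share thus started below the parental one, passed it at 8 and 24 h and ended below it.

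**Figure D1:**
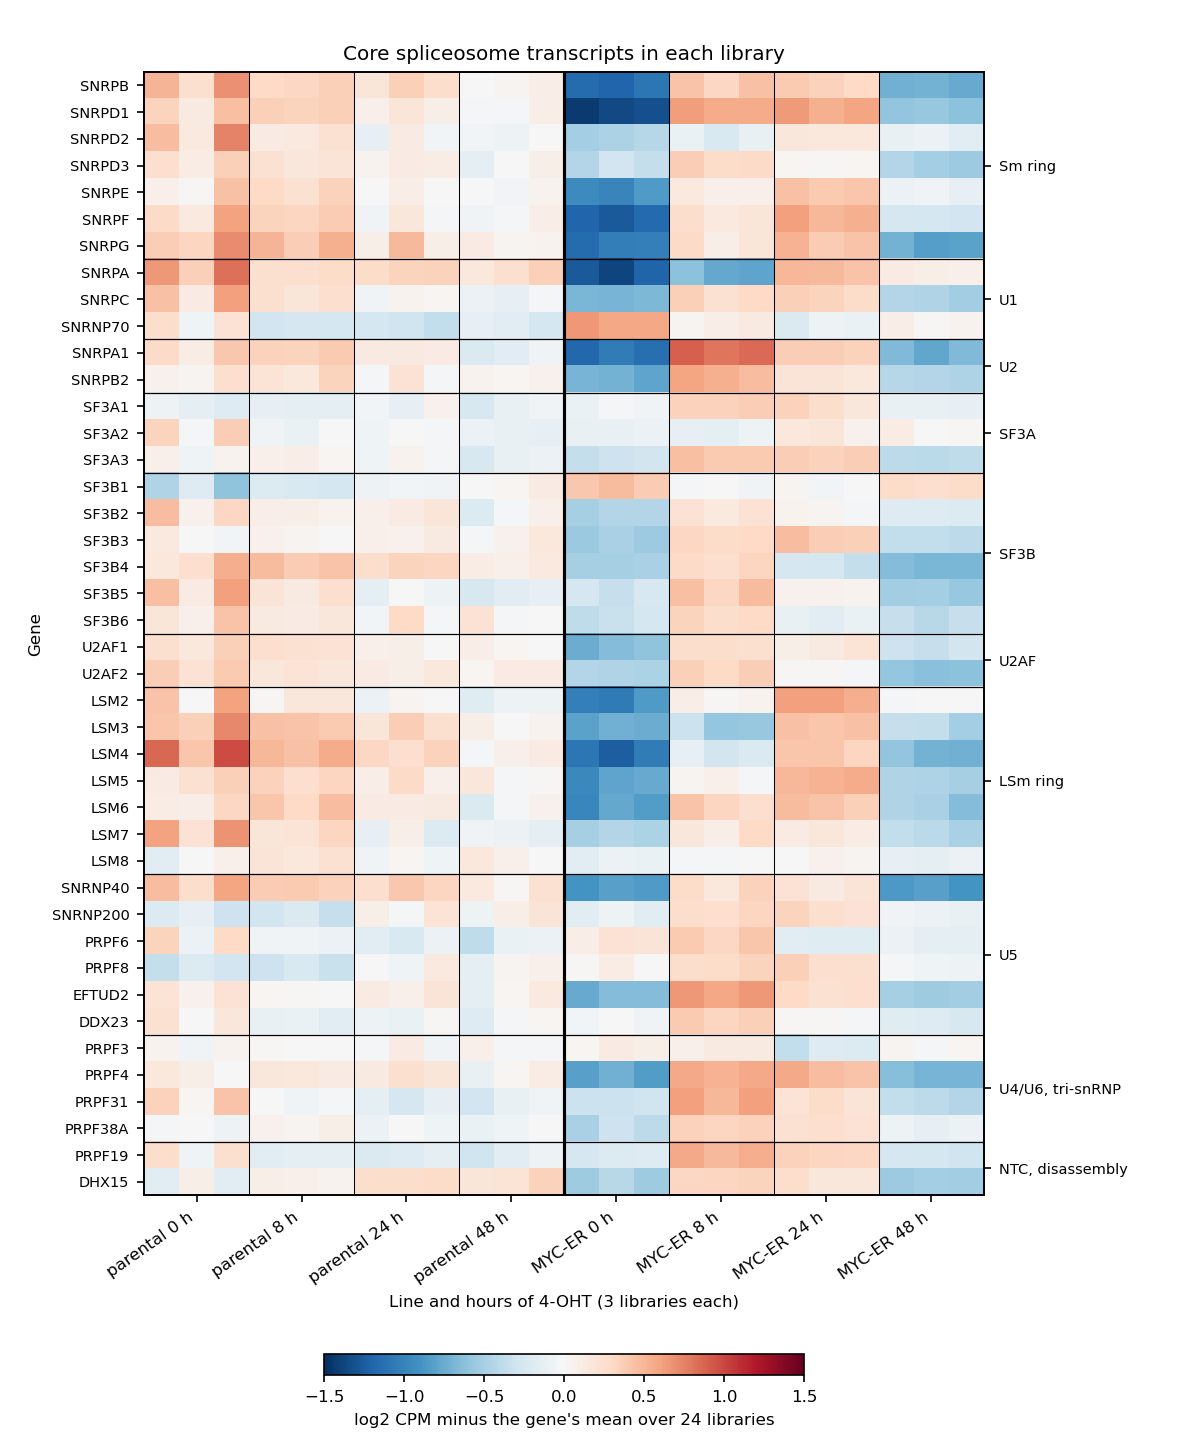
Levels of the 42 transcripts (rows, grouped by complex) in each of the 24 libraries (columns), as log2 CPM minus the gene's mean over all libraries, red above and blue below that mean. Most rows are blue in the 3 MYC-ER libraries at 0 h, red at 8 and 24 h and pale or blue at 48 h, while SF3B1 and SNRNP70 run the other way.

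**Figure D2:**
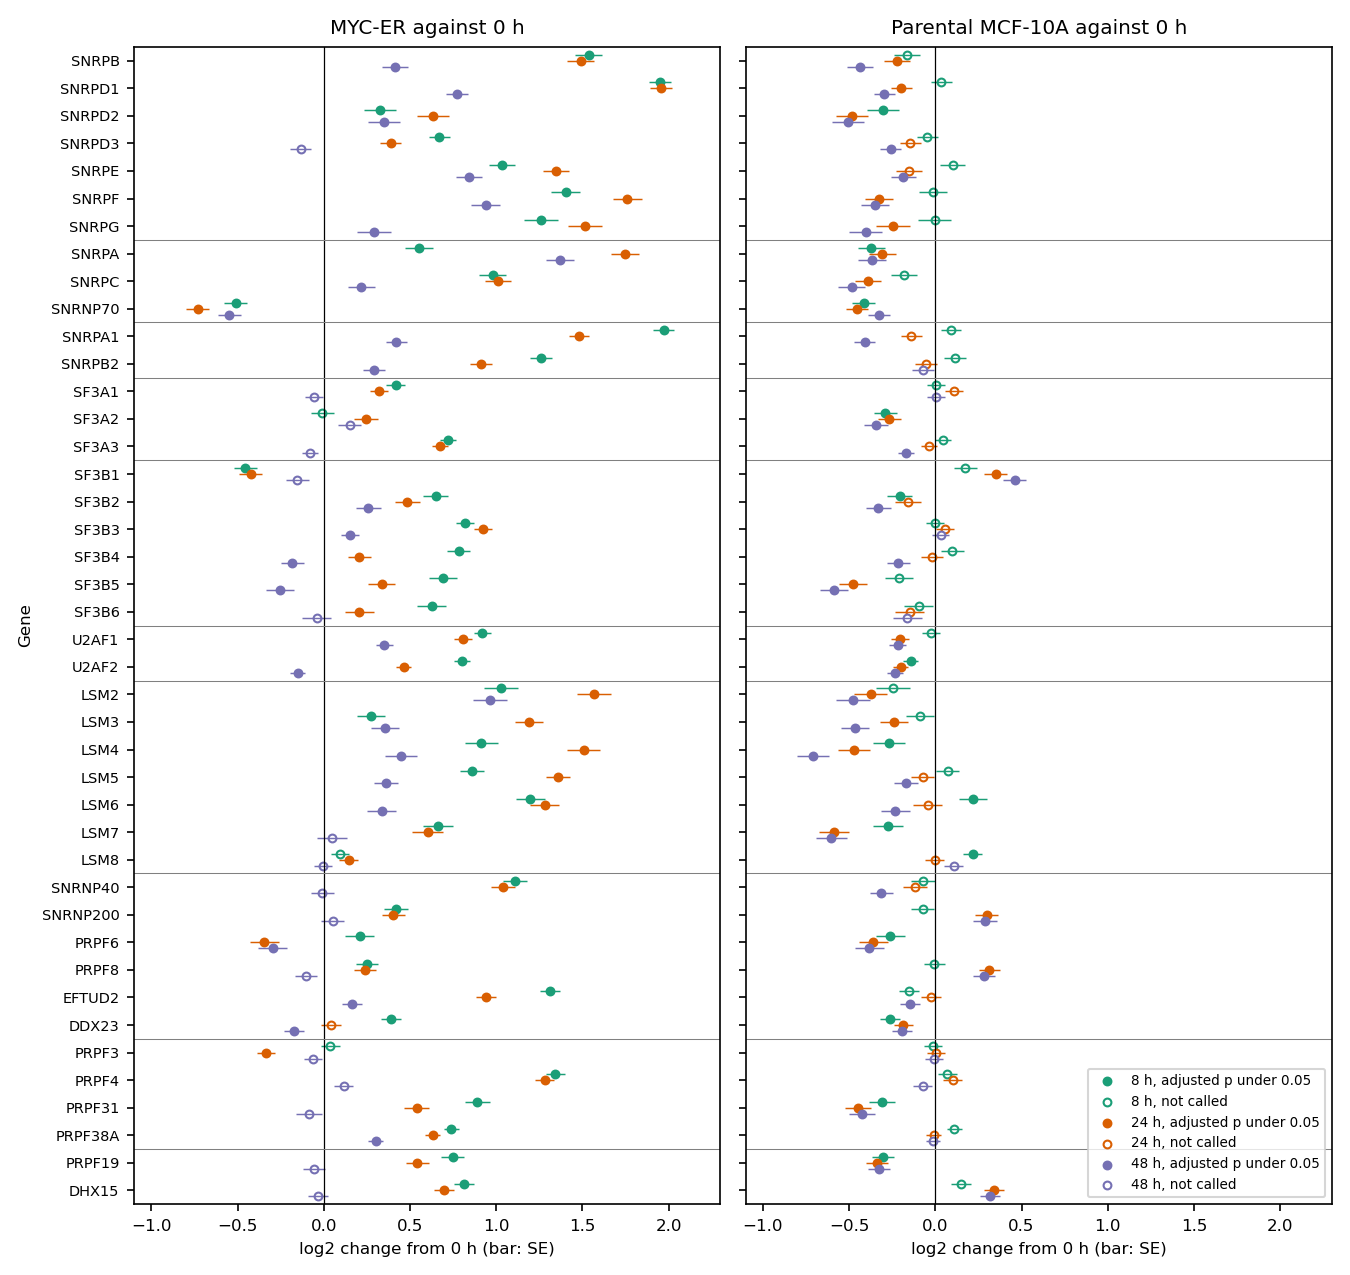
Fitted log2 changes from 0 h for each member at 8, 24 and 48 h in the MYC-ER line and in the parental line. In the MYC-ER line 37 members lie above 0 and past the threshold at each of 8 and 24 h, and the parental changes all lie between -0.71 and 0.46.

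The Sm proteins SNRPB, SNRPD1, SNRPD2, SNRPD3, SNRPE, SNRPF and SNRPG form the ring that closes around the snRNA of U1, U2, U4 and U5. All 7 rose at 8 h and at 24 h, with medians of 1.26 and 1.49, and 6 were still higher at 48 h with a median over the 7 of 0.41. SNRPD1 (GRCh38 chromosome 18, 21612267 to 21633524) changed most among the Sm genes at 8 h. It stood at 23.9, 25.4 and 26 CPM in the 3 MYC-ER libraries at 0 h, 100.3, 95.6 and 94.9 at 8 h, 100.4, 93.7 and 97.9 at 24 h and 42.9, 43.7 and 42.2 at 48 h. In the parental line it stood at 81.6, 71.1 and 88.8 CPM at 0 h, 82.7, 81.8 and 82.7 at 8 h, 68, 73.6 and 68.9 at 24 h and 64, 63.3 and 69.5 at 48 h. No MYC-ER library at a later time overlapped those at 0 h, and the log2 changes were 1.95, 1.96 and 0.77 (SE 0.0634, 0.0634 and 0.0619).

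SNRPD2, its partner in the ring, changed least of the 7 at 8 h. Its MYC-ER levels were 78.9, 81.4 and 84 CPM at 0 h, 105, 96.1 and 105 at 8 h, 127, 126 and 126 at 24 h and 105, 106 and 101 at 48 h. Parental libraries held 155, 125 and 189 CPM at 0 h, 123, 124 and 132 at 8 h, 103, 123 and 109.6 at 24 h and 109.7, 107 and 113 at 48 h. The MYC-ER log2 change grew from 0.32 (adjusted p 0.00404) at 8 h to 0.63 at 24 h, and with upper-quartile scaling the 8 h change was 0.18 (adjusted p 0.111). SNRPF and SNRPG had their highest MYC-ER means at 24 h, 74.7 and 50.8 CPM, after 22.1 and 17.8 CPM at 0 h. The 48 h call of SNRPG (0.29) ended without 0 h replicate 1 or 48 h replicate 1 (0.25, adjusted p 0.0837, in the first case). SNRPD3 was the Sm gene not called at 48 h, with a log2 change of -0.13 (adjusted p 0.0798). The SNRPB protein has a near-identical relative in SNRPN, and several Sm genes have processed pseudogenes, so their levels may depend on how shared reads were counted. From 0 to 8 h in MYC-ER, SNRPB counts went from 11959 to 12509 per library up to 26953 to 31486. SNRPN counts went from 8938 to 9004 down to 5277 to 5631. The part of shared reads was not tested.

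U1 has 3 proteins of its own beside the Sm ring. SNRPA and SNRPC rose in the MYC-ER line while SNRNP70, the U1-70K protein that contacts splicing activators, fell at all 3 times. SNRPC, the zinc-finger protein that steadies pairing with the 5′ splice site, rose by 0.98 on the log2 scale at 8 h and 1.01 at 24 h. SNRPC libraries read 35.1, 34.8 and 35.5 CPM at 0 h, 72.2, 66.3 and 69.4 at 8 h, 72.4, 71.2 and 68.5 at 24 h and 41.9, 41.3 and 39.3 at 48 h in MYC-ER. The parental values were 76.6, 61.4 and 86.6 CPM at 0 h, 66.8, 64 and 67.3 at 8 h, 54.7, 58.6 and 57.8 at 24 h and 53.2, 51.8 and 55.4 at 48 h. MYC-ER rose from below every parental library to the range of the parental 0 h libraries and fell back at 48 h. The 48 h change of SNRPC was 0.22 (adjusted p 0.0258), and the call ended without any 1 of 0 h replicates 1, 2 and 3 and 48 h replicates 1 and 2 (adjusted p 0.064 without 0 h replicate 1).

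SNRPA, which binds a stem-loop of U1 snRNA, was among the members whose rise came late. MYC-ER libraries gave 25.4, 23.3 and 26.5 CPM at 0 h, 39.5, 35.6 and 35.2 at 8 h, 86, 84.8 and 81.7 at 24 h and 65.8, 64.3 and 63.8 at 48 h. Its parental libraries gave 95.4, 78 and 107 CPM at 0 h, 71.7, 72.3 and 73.2 at 8 h, 73.2, 76.7 and 77.1 at 24 h and 67.7, 72.3 and 77.8 at 48 h. Its log2 changes were 0.55, 1.75 and, at 48 h, 1.37 (SE 0.0815, adjusted p 8.05e-12), the largest of any member at 48 h and the one of 2-fold or more there.

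SNRNP70 (GRCh38 chromosome 19, 49085419 to 49108605) had 530.1, 503 and 505 CPM at 0 h, 347, 361 and 372 at 8 h, 291, 320.0 and 315 at 24 h and 361, 342 and 349 at 48 h in MYC-ER. In parental libraries it had 405, 322 and 391.8 CPM at 0 h, 275, 284 and 280.2 at 8 h, 281, 275 and 262 at 24 h and 309, 302 and 281 at 48 h. All later libraries lay below all 0 h libraries of the same line. The fall in MYC-ER was -0.51, -0.73 and -0.55 on the log2 scale (adjusted p 5.42e-07, 2.61e-09 and 5.44e-07), and in the parental line -0.41, -0.45 and -0.33.

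The promoters of members that moved in opposite directions can be read beside these values. RefSeq windows of 250 bases before to 50 after the start (GRCh38.p14) matched 38 of the 42 members, and SNRPD1, PRPF3, LSM6 and SF3B3 had no match. Each window was searched on both strands for CACGTG, the E-box that MYC binds with MAX, for its variant CACGCG, and for CCGGAAGT, a motif of the ETS family; the first 2 share their first 4 letters but cannot match at the same place on 1 strand. CACGTG was in 2 of 38 member windows (5.26%) and in 7.40% of all 27305 promoters. CACGCG was in 10 of 38 (26.3%) against 11.4% of all, and CCGGAAGT in 11 of 38 (28.9%) against 4.41% of all. The 27305 promoters were not matched to the members by expression or base composition, and every member had at least 1068 counts in each library. Whether these shares are particular to the members was not tested. A match is a run of letters, not a measured binding site. The stretch upstream of the first exon is printed for the member that rose most at 8 h, SNRPA1 (chr15:101295283-101295418, minus strand), for the 2 that fell, SNRNP70 (chr19:49085201-49085418, plus strand) and SF3B1 (chr2:197435094-197435343, minus strand), and for EFTUD2 (chr17:44899663-44899695, minus strand), the other member with CACGTG. Capitals mark a match to any of the 3 motifs on either strand, and each sequence reads 5′ to 3′ along the gene.
SNRPA1: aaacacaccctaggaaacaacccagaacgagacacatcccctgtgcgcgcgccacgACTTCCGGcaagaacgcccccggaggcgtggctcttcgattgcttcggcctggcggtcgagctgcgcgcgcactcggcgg
SNRNP70: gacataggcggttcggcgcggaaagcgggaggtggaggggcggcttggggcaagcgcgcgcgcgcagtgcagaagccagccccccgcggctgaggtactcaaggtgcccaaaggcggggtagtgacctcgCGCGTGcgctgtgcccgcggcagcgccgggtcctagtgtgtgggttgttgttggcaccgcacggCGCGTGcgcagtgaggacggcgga
SF3B1: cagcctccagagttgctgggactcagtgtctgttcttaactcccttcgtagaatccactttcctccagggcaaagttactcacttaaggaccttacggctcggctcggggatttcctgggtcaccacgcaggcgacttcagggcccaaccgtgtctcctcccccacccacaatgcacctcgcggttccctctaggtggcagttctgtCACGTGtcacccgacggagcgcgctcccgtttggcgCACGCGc
EFTUD2: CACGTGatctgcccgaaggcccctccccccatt
The SNRPA1 stretch holds the ETS motif, and the SNRNP70 stretch holds CACGCG at 2 places, both read on the opposite strand. CACGCG was also in the windows of LSM4, LSM7, LSM8, PRPF6, SF3A2, SNRPA, SNRPB2 and U2AF1. None of these was called lower at 8 h in MYC-ER. CACGTG thus occurred in SF3B1, which fell, from position -43 relative to the RefSeq start, and in EFTUD2, which rose, from position -250. GENCODE 29 starts EFTUD2 further upstream, at 44899662, directly beside the printed stretch, so the motif lies closer to that start.

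The 2 proteins that bind stem-loop IV of U2 snRNA, SNRPA1 and SNRPB2, both rose at all 3 times, with medians of 1.62, 1.2 and 0.36. SNRPA1 (GRCh38 chromosome 15, 101281510 to 101295282) read 22.3, 24.4 and 23.1 CPM at 0 h in MYC-ER, 93.9, 88.5 and 91.2 at 8 h, 65.3, 65.1 and 64.4 at 24 h and 32, 29.5 and 31.9 at 48 h. Parental SNRPA1 read 61.6, 54.5 and 66.7 CPM at 0 h, 64.2, 63.7 and 66.5 at 8 h, 55.7, 55.3 and 55 at 24 h and 43.6, 45.2 and 48.7 at 48 h. MYC-ER libraries were above all parental ones after 8 h, and below them all after 48 h. The log2 changes were 1.97, 1.48 and 0.42, and the step down from 8 to 24 h was -0.49 (adjusted p 3.1e-07). For SNRPB2 the MYC-ER values were 20.5, 20.3 and 19.2 CPM at 0 h, 49.9, 48 and 45.8 at 8 h, 37.8, 37.8 and 37 at 24 h and 24.7, 24.4 and 24.1 at 48 h. Its parental values were 34.5, 34.2 and 39.4 CPM at 0 h, 38.1, 37.1 and 41.7 at 8 h, 32.8, 38.5 and 32.6 at 24 h and 34.3, 33.8 and 34.7 at 48 h. SNRPB2 followed the same course with smaller steps, 1.26, 0.91 and 0.29.

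SF3A, the 3-subunit complex that ties SF3B to the U2 core, changed less. SF3A1 and SF3A3 rose at 8 h, all 3 rose at 24 h (median 0.32), and none was called at 48 h, with values of -0.057, 0.15 and -0.082 for SF3A1, SF3A2 and SF3A3 (adjusted p 0.418, 0.0776 and 0.162). SF3A3 in MYC-ER stood at 76.1, 78.6 and 80.6 CPM at 0 h, 133, 128 and 128 at 8 h, 125, 124 and 126 at 24 h and 74.4, 73.3 and 74.6 at 48 h. The parental line had 102, 93 and 101 CPM of it at 0 h, 103, 104 and 99 at 8 h, 92.8, 100.5 and 96.1 at 24 h and 82.3, 89.9 and 91.2 at 48 h. SF3A3 was therefore up at 8 and 24 h (0.72 and 0.67) and just below its 0 h libraries at 48 h. SF3A2 in MYC-ER stood at 61.5, 61.6 and 63 CPM at 0 h, 61.2, 60.4 and 63.5 at 8 h, 74.7, 76 and 69.8 at 24 h and 71.8, 67.1 and 67.7 at 48 h. Parental SF3A2 levels were 84.4, 65.7 and 85.9 CPM at 0 h, 64.2, 62.4 and 66.5 at 8 h, 64, 66.3 and 65.8 at 24 h and 62.7, 62 and 61.1 at 48 h. SF3A2 rose at 24 h (0.24, adjusted p 0.00353) and had a log2 change of -0.0085 at 8 h (adjusted p 0.923).

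SF3B clamps the branch-point adenosine. Of its 6 subunits listed here, 5 rose at 8 h and at 24 h, and SF3B1, the largest subunit and the one that splicing modulators bind, fell. SF3B1 (GRCh38 chromosome 2, 197389784 to 197435091) gave 423, 445 and 418 CPM at 0 h, 312, 318 and 307 at 8 h, 329, 310.4 and 319 at 24 h and 386, 382 and 387 at 48 h in MYC-ER. Parental libraries gave 233, 279 and 211 CPM at 0 h, 277, 272 and 267 at 8 h, 303, 311 and 308 at 24 h and 320.0, 325 and 349 at 48 h. MYC-ER libraries started far above the parental ones and came down, while the parental ones went up. The MYC-ER changes were -0.46 at 8 h and -0.42 at 24 h (adjusted p 3e-06 and 9.13e-06), and -0.15 at 48 h (adjusted p 0.0653). SF3B3, a scaffold of the complex, rose most of the SF3B genes. SF3B3 stood in MYC-ER at 172, 180.2 and 174 CPM at 0 h, 313, 306 and 310.4 at 8 h, 348, 326 and 324 at 24 h and 196, 196 and 192 at 48 h. In the parental line SF3B3 stood at 279, 252 and 247 CPM at 0 h, 264, 260.1 and 254 at 8 h, 266, 265 and 278 at 24 h and 247, 265 and 282 at 48 h. Its MYC-ER changes were 0.82 and 0.92 at 8 and 24 h. SF3B6, which touches the branch point itself, was 0.21 at 24 h, and that call ended without 0 h replicate 1 or 2 or any 1 of the 24 h libraries (0.18, adjusted p 0.122, in the first case). At 48 h SF3B4 and SF3B5 were called lower, at -0.18 and -0.25; the SF3B4 call ended without any 1 of 5 MYC-ER libraries (all but 48 h replicate 1), and with the library total as the only scaling they were -0.022 and -0.093 (adjusted p 0.794 and 0.299).

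U2AF1 reads the AG of the 3′ splice site and U2AF2 its polypyrimidine tract, and both rose at 8 and 24 h. U2AF1 had 23, 24.7 and 25.5 CPM at 0 h, 46.2, 46.5 and 45.7 at 8 h, 41.2, 42.5 and 44.5 at 24 h and 31.1, 30.4 and 31.9 at 48 h in MYC-ER. Its parental levels were 45.7, 43.2 and 49.5 CPM at 0 h, 46, 45.2 and 44.8 at 8 h, 40.6, 41 and 38.4 at 24 h and 41.2, 39.3 and 38.5 at 48 h. This value is uncertain, because the annotation holds a near-identical copy of the gene on chromosome 21, whose own row took 46.4 to 48.9% of the counts of both in every library. U2AF1 rose by 0.92 on the log2 scale at 8 h and the copy's row by 0.98. U2AF2 had 179, 177 and 174 CPM at 0 h, 310.4, 299.9 and 314 at 8 h, 246, 246 and 239 at 24 h and 162, 157 and 158 at 48 h in MYC-ER. Parental U2AF2 had 313, 283 and 318 CPM at 0 h, 274, 279 and 274 at 8 h, 265, 259 and 270.1 at 24 h and 247.7, 265 and 264 at 48 h. U2AF2 was up by 0.80 at 8 h and 0.46 at 24 h and was called lower at 48 h (-0.15, adjusted p 0.00766), a direction that turned with the library total as the only scaling (0.0096).

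The LSm2 to LSm8 proteins form the ring on the 3′ end of U6 snRNA. Of the 7, 6 rose at 8 h (median 0.86), all 7 at 24 h (median 1.28) and 5 were still higher at 48 h (median 0.36). LSM6 rose most at 8 h. Its MYC-ER libraries held 6.19, 7.16 and 6.8 CPM at 0 h, 16.4, 15.2 and 14.5 at 8 h, 16.9, 16.4 and 15.7 at 24 h and 8.92, 8.73 and 7.77 at 48 h. LSM6 in the parental line was at 13.1, 13.1 and 15.1 CPM at 0 h, 16.3, 15 and 16.8 at 8 h, 13.3, 13.3 and 13.4 at 24 h and 10.5, 12 and 12.7 at 48 h. Its MYC-ER changes were 1.2, 1.28 and 0.34. LSM8, the subunit that marks the nuclear U6 ring apart from the cytoplasmic LSm1 to LSm7 ring, moved least. MYC-ER libraries had 29.7, 31.2 and 31 CPM of LSM8 at 0 h, 32.7, 32.4 and 32.9 at 8 h, 32.9, 34.6 and 34 at 24 h and 30.3, 30.1 and 31.1 at 48 h. Parental libraries had 29.6, 33.2 and 34.8 CPM of it at 0 h, 37.9, 36.9 and 38.6 at 8 h, 31.9, 33.8 and 31.7 at 24 h and 37.1, 35 and 33 at 48 h. LSM8 changed by 0.14 at 24 h (adjusted p 0.0234) and was not called at 8 h (0.095, adjusted p 0.121); the 24 h call ended without 0 h replicate 1, 24 h replicate 2 or 24 h replicate 3 (0.12, adjusted p 0.0948, in the first case). LSM2, LSM3, LSM4 and LSM5 rose further between 8 and 24 h, by 0.54, 0.92, 0.59 and 0.50 on the log2 scale. LSM3 had risen by only 0.27 at 8 h, and without 8 h replicate 1 that call was lost at 0.18 (adjusted p 0.0564).

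**Figure D3:**
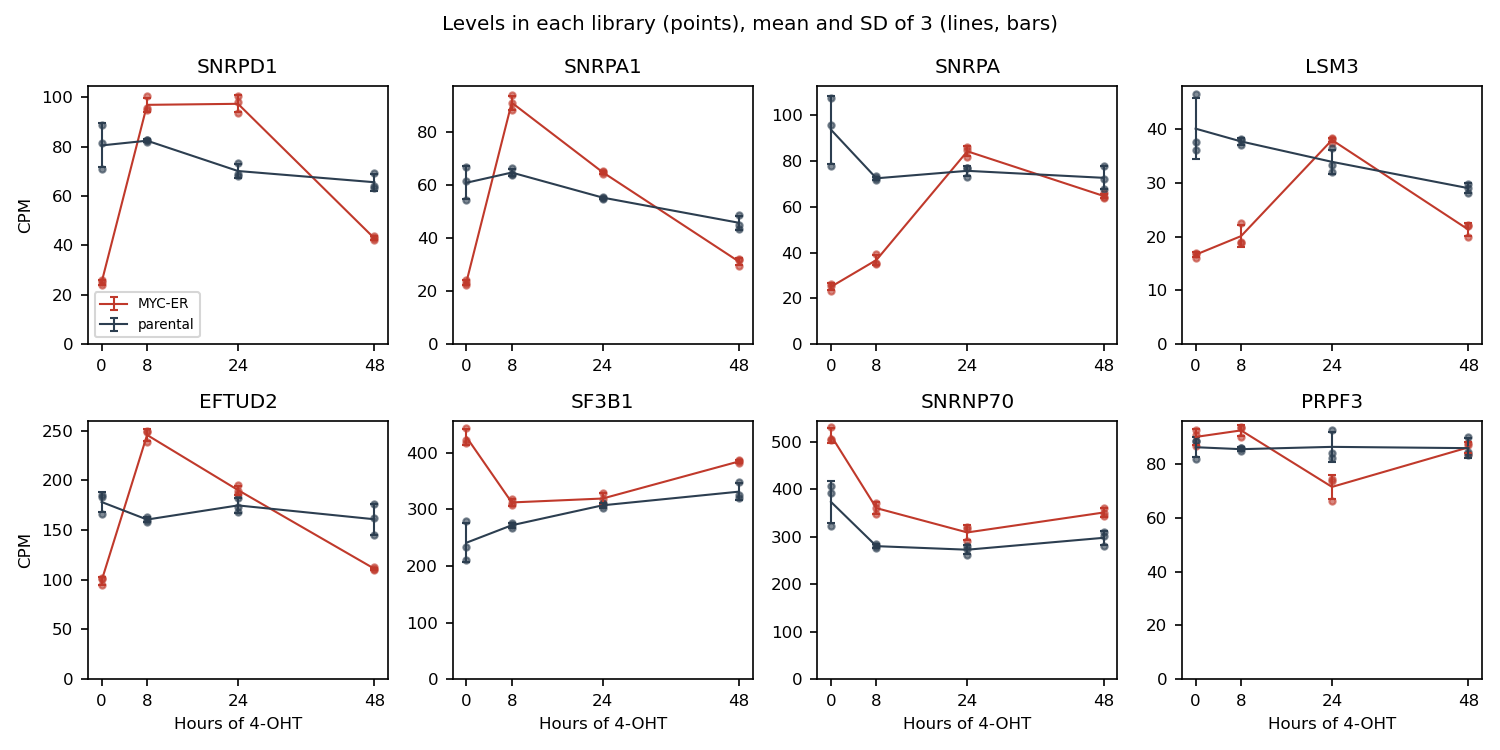
CPM against hours of 4-OHT for 8 members in the MYC-ER and parental lines, with points for single libraries and lines with bars for the mean and SD of 3. SNRPD1, SNRPA1 and EFTUD2 are high by 8 h, SNRPA and LSM3 only at 24 h, PRPF3 dips at 24 h, and SF3B1 and SNRNP70 fall in the MYC-ER line.

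U5 carries the scaffold of the catalytic centre, PRPF8, the unwinding helicase SNRNP200, the GTPase EFTUD2, the WD-repeat protein SNRNP40, PRPF6, which bridges U5 to U4/U6, and DDX23, the helicase that helps release U1. All 6 rose at 8 h (median 0.41), and at 24 h 4 were higher, PRPF6 was lower and DDX23 was not called (0.041, adjusted p 0.561). EFTUD2 rose most, from 94.4, 101 and 102 CPM at 0 h to 249, 239 and 249.8 at 8 h, then 195, 187 and 189 at 24 h and 112, 110.1 and 111 at 48 h. Parental EFTUD2 was 183, 166 and 186 CPM at 0 h, 163, 161 and 158 at 8 h, 173, 168 and 183 at 24 h and 145, 162 and 176 at 48 h. Its MYC-ER change was 1.31 at 8 h (SE 0.059) and 0.94 at 24 h. PRPF6 moved the other way after 8 h. In MYC-ER it gave 93.4, 102 and 99.5 CPM at 0 h, 115, 108 and 117 at 8 h, 77.6, 77.1 and 77 at 24 h and 82.4, 78.6 and 79 at 48 h. In the parental line it gave 110.4, 82 and 108 CPM at 0 h, 84.1, 84 and 82.1 at 8 h, 77.5, 74.3 and 81.8 at 24 h and 67, 81.2 and 82 at 48 h. PRPF6 was 0.21 at 8 h (adjusted p 0.0341), a call that ended without 0 h replicate 1 or 3 or 8 h replicate 1 or 3 (0.17, adjusted p 0.122, in the first case), and fell to -0.35 at 24 h and -0.30 at 48 h. SNRNP40 rose by 1.11 and 1.04 at 8 and 24 h and was -0.0076 at 48 h (adjusted p 0.949).

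Of the 4 proteins of U4/U6 and the assembled tri-snRNP, PRPF4, PRPF31 and PRPF38A rose at 8 and 24 h and PRPF3 did not. PRPF4, which pairs with PRPF3 on U4/U6, read 38.7, 41.5 and 38 CPM at 0 h, 101, 98.2 and 101 at 8 h, 101, 94.3 and 92.1 at 24 h and 43.9, 42.2 and 42 at 48 h in MYC-ER. Parental PRPF4 read 76.2, 72.5 and 68.6 CPM at 0 h, 77.1, 76.4 and 74.4 at 8 h, 74.9, 80.6 and 77.4 at 24 h and 63.1, 69.5 and 73.8 at 48 h. It was up by 1.34 and 1.28 and then dropped by 1.16 between 24 and 48 h on the log2 scale. PRPF3 read 86.9, 93 and 91 CPM at 0 h, 90.2, 93.8 and 94.1 at 8 h, 66.3, 74.6 and 74 at 24 h and 87.8, 84.1 and 87.2 at 48 h in MYC-ER. For parental PRPF3 the values were 88.6, 82.1 and 88.6 CPM at 0 h, 86.2, 86 and 84.9 at 8 h, 84.4, 92.8 and 82.5 at 24 h and 90.2, 84.6 and 83.5 at 48 h. PRPF3 was thus lower at 24 h alone among the MYC-ER times (-0.33, adjusted p 1.04e-05), against 0.039 at 8 h and -0.064 at 48 h (adjusted p 0.53 and 0.36). The pair of partners therefore went in different directions at 24 h.

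The last 2 members are PRPF19, the ubiquitin ligase of the complex named after it, and DHX15, the helicase that takes spent spliceosomes apart, and both rose at 8 and 24 h. DHX15 gave 155, 168 and 154 CPM at 0 h, 276, 279.8 and 281 at 8 h, 268, 250.9 and 252 at 24 h and 153, 157 and 156 at 48 h in MYC-ER. Parental DHX15 gave 199.8, 237 and 199 CPM at 0 h, 237, 236 and 232 at 8 h, 268, 268 and 270.0 at 24 h and 252, 257 and 283 at 48 h. The MYC-ER changes of DHX15 were 0.81, 0.69 and -0.035, the last not called (adjusted p 0.678). PRPF19 gave 168, 173 and 174 CPM at 0 h, 295, 279 and 291 at 8 h, 254, 249 and 247 at 24 h and 167, 166 and 162 at 48 h in MYC-ER. Its parental libraries were at 239.5, 191 and 236 CPM at 0 h, 177, 182 and 180.4 at 8 h, 171, 174 and 182 at 24 h and 163, 179.5 and 189 at 48 h. PRPF19 had changes of 0.75, 0.54 and -0.058, the last again not called (adjusted p 0.509).

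In the MYC-ER line 35 members were higher at both 8 and 24 h. Of these, 20 were also higher at 48 h, 12 were not called there, and 3 (SF3B4, SF3B5 and U2AF2) were called lower. The MYC-ER mean was highest at 8 h for 25 members, at 24 h for 15 and at 0 h for 2. How many of all genes have such joint calls or peaks was not counted, so these numbers only describe the members. From 8 to 24 h, 10 rose (background 28.4%) and 15 fell (background 27.1%). The largest rises were SNRPA at 1.2 and LSM3 at 0.92, and the largest falls SF3B4 at -0.58 and PRPF6 at -0.55. That split depended on scaling. It was 21 higher and 10 lower with the library total alone and 13 and 12 with upper-quartile scaling. With the GC trend removed it was 18 and 11. Calls over all genes shifted too, with 51.2% of them higher as reported, and 67.8%, 59.7% and 62.4% under these settings in turn. From 24 to 48 h, 37 fell (background 25.5%) and 3 rose (background 28.2%), with all 3 libraries at 48 h below all 3 at 24 h for 37 members, as for 31.6% of all genes. SNRPG and SNRPD1 fell most over that step (-1.22 and -1.18). The 3 that rose were SF3B1 (0.27), PRPF3 (0.27) and SNRNP70 (0.18), the last not called without 24 h replicate 1 or 48 h replicate 1 (0.14, adjusted p 0.124, in the first case). In the 48 h comparison with 0 h, the 20 higher and 6 lower calls became 26 and 1 with the library total alone. Upper-quartile scaling made them 22 and 2, but a fit of those 2 groups alone made them 22 and 11. Of the calls over all genes, 53.0% were higher as reported, and 73.8%, 58.3% and 50.5% in these fits in turn. Besides SNRNP70 the lower calls at 48 h were led by PRPF6 (-0.30), which was -0.13 with the library total alone (adjusted p 0.139).

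Before 4-OHT the MYC-ER line held less of most of these transcripts than its parent. At 0 h, 34 of 42 were lower (background 32.7% of genes lower) and 3 were higher (background 31.6%), with a median log2 difference of -0.80 against 0 over all genes, and 14 were lower by 2-fold or more, as were 15% of all genes. The lowest were SNRPA at -1.90, LSM4 at -1.89 and SNRPD1 at -1.68 on the log2 scale. The Sm ring was lower in all 7 of its members (median -1.55) and the LSm ring in 6 of 7 (median -1.07). SF3B1 (0.83), SNRNP70 (0.46) and PRPF8 (0.33) were higher. Removing the GC trend made the higher calls 6, and turned SF3A2 and DDX23 from -0.34 and -0.17 to 0.080 and 0.012 (adjusted p 0.11 and 0.797). Of the calls over all genes 53.0% were then higher, against 49.1% as reported. With 1 line of each kind, the fusion and any other difference between the lines cannot be told apart.

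Set beside the parental line at the same hour, the rise carried the MYC-ER line past its parent. At 0 h all 3 MYC-ER libraries lay below all 3 parental ones for 34 members (32.4% of all genes) and above for 3 (32.6%), and the median ratio of MYC-ER to parental means was 0.574. At 8 h they lay above for 24 members (29.1% of all genes) and below for 11 (31.7%), with a median ratio of 1.10. At 24 h the counts were 26 above (29.9%) and 8 below (30.5%), with a median ratio of 1.13. By 48 h only 4 lay above (33.5%) and 29 below (33.3%), and the median ratio was 0.790. SNRPA had the lowest ratio at both 0 and 8 h, 0.268 and 0.508, and SNRNP40 at 48 h, 0.503. LSM2 had the highest at 24 h, 1.52. These ratios compare levels and were not tested beyond the count of libraries that do not overlap.

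**Figure D4:**
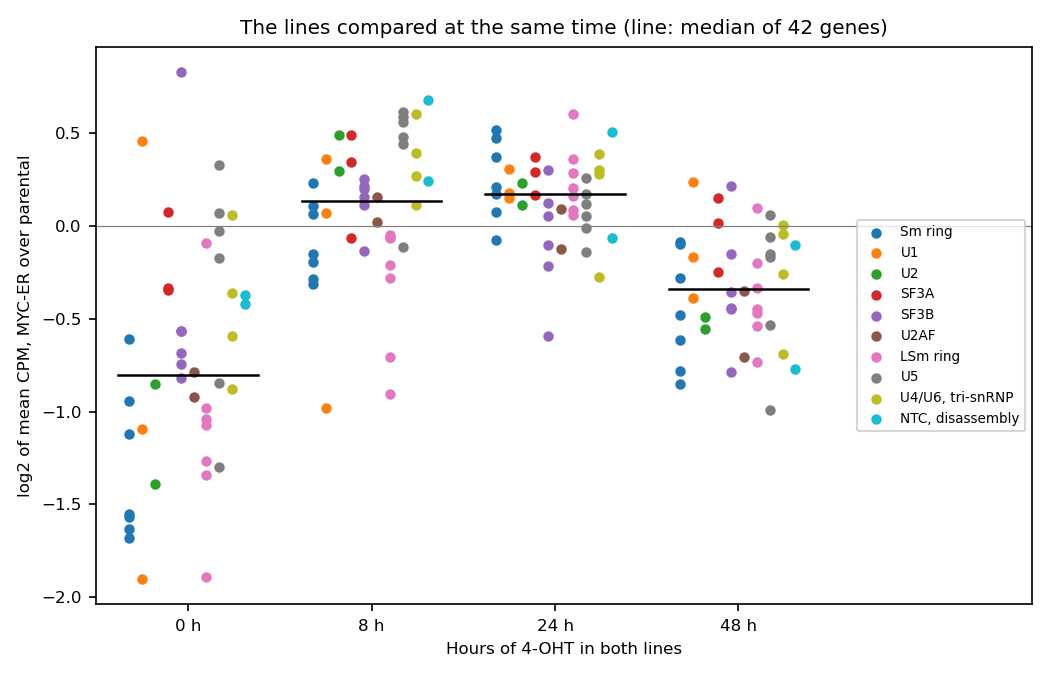
Ratio of the MYC-ER mean to the parental mean (log axis) for each of the 42 members at 0, 8, 24 and 48 h of 4-OHT, with the median of the 42. The medians, in order of time, are 0.574, 1.10, 1.13 and 0.790.

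In the parental line, which has no fusion, changes after 4-OHT were smaller, and at 24 and 48 h mostly downward. At 8 h 2 members were higher (background 15%) and 12 lower (background 16%), with a median log2 change of -0.06. At 24 h 4 were higher (background 21.2%) and 20 lower (background 21.7%), with a median of -0.16. At 48 h 4 were higher (background 20.4%) and 30 lower (background 20.1%), with a median of -0.25, and no parental member changed 2-fold at any time, where 1.08 to 1.88% of all genes rose as much. The medians leaned on single 0 h libraries. Without 0 h replicate 3 the 8 h median was 0.011 and the 24 h median -0.078, and without 0 h replicate 2 they were -0.11 and -0.24. Counted by libraries that do not overlap those at 0 h, 2 members lay above (16.7% of all genes) and 7 below (17.2%) at 8 h, 4 above (21.4%) and 12 below (21.7%) at 24 h, and 4 above (19.2%) and 25 below (19.7%) at 48 h. The largest falls were SNRNP70 and SNRPA at 8 h (-0.41 and -0.37), LSM7 and SNRPD2 at 24 h (-0.59 and -0.48), and LSM4 and LSM7 at 48 h (-0.71 and -0.60). LSM6 and LSM8 were called higher at 8 h (both 0.22). SF3B1, DHX15, PRPF8 and SNRNP200 were higher at 24 h (0.35, 0.34, 0.31 and 0.30) and at 48 h (0.46, 0.32, 0.28 and 0.29). LSM7 shows the spread behind such calls, with 58.2, 44.3 and 60.8 CPM in the parental libraries at 0 h, 43.2, 43.9 and 47.8 at 8 h, 35.1, 40.4 and 33.2 at 24 h and 36.8, 36 and 34.7 at 48 h.

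Parental counts rested on few libraries. Parental 0 h replicate 2 lay closer to the later libraries than replicates 1 and 3 did for LSM7 and SNRPA. At 8 h the lower calls went from 12 to 7 without 0 h replicate 1, to 6 without 0 h replicate 3, to 6 without 8 h replicate 1 and to 7 without 8 h replicate 2, but to 18 without 0 h replicate 2. Higher calls there went from 2 to 1 without 0 h replicate 1, 8 h replicate 1 or 8 h replicate 3. They went to 4 without 0 h replicate 2 and to 6 without 0 h replicate 3. Over all genes the 8 h calls went from 6870 to 4720, 9166 and 4929 without 0 h replicates 1, 2 and 3. LSM6 lost its 8 h call without 0 h replicate 1 or 2 or 8 h replicate 1 or 3 (in the first case adjusted p 0.173). Without 0 h replicate 3, lower calls at 24 h went from 20 to 13 (to 26 without 0 h replicate 2), SNRPD2 from -0.48 to -0.30, and SNRPA at 48 h from -0.37 to -0.22. Fitted on the 2 groups alone, with the spread estimated from 6 libraries, lower calls were 1, 7 and 10 at 8, 24 and 48 h. The higher calls were 0, 2 and 1 by edgeR's quasi-likelihood test (1 at 8 h at an unadjusted p under 0.05). Over all genes the calls in those fits numbered 1452, 4923 and 3274, against 6870, 9503 and 8978 with all libraries. DESeq2 on all libraries made 5 higher member calls at 8 h.

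Changes in the parental line also varied with the base composition and the length of the transcripts. Over the 42 members, Spearman's rho between the log2 change and the GC content of the longest annotated transcript was -0.78, -0.52 and -0.45 at the 3 times. Over 9784 genes of at least 10 CPM it was -0.62, -0.66 and -0.65. In the MYC-ER line it was -0.32, -0.28 and -0.31 over the members and 0.02, -0.06 and 0.03 over those genes. With the length of that transcript, parental rho was 0.36, 0.64 and 0.67 over the members and 0.39, 0.55 and 0.60 over those genes. In the MYC-ER line rho with length was -0.24, -0.29 and -0.22 over the members and -0.11, -0.13 and -0.10 over those genes. For the difference between the lines at 0 h it was 0.54 over the members and 0.38 over those genes. No fit removed the length trend. These are descriptions across genes that share libraries and are not independent replicates. Member GC content ran from 35.2 to 66.6% with a median of 49.6%, against 47.9% over those genes. The members were shorter, with a median of 2446 bases against 3826.5 over those genes. The part of length in the member results was not tested. With the genome-wide GC trend removed, the parental lower calls were 7, 23 and 26, and the MYC-ER higher calls 34, 35 and 22. Of the calls over all genes, 48.3%, 49.4% and 50.3% were higher as reported in the parental line and 47.7%, 49.3% and 53.0% in MYC-ER. With the trend removed these shares were 50.4%, 48.0% and 51.3%, and 41.3%, 49.1% and 61.5%. U2AF2 and SF3A2 then changed sign in the parental line at all 3 times, for example from -0.27 to 0.19 for SF3A2 and from -0.20 to 0.12 for U2AF2 at 24 h. DHX15 turned from 0.34 to -0.12 at 24 h and from 0.32 to -0.15 at 48 h. SNRNP70 turned from -0.33 to 0.055 at 48 h, LSM8 from 0.22 to -0.054 at 8 h and SNRPB from -0.22 to 0.030 at 24 h.

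**Figure D5:**
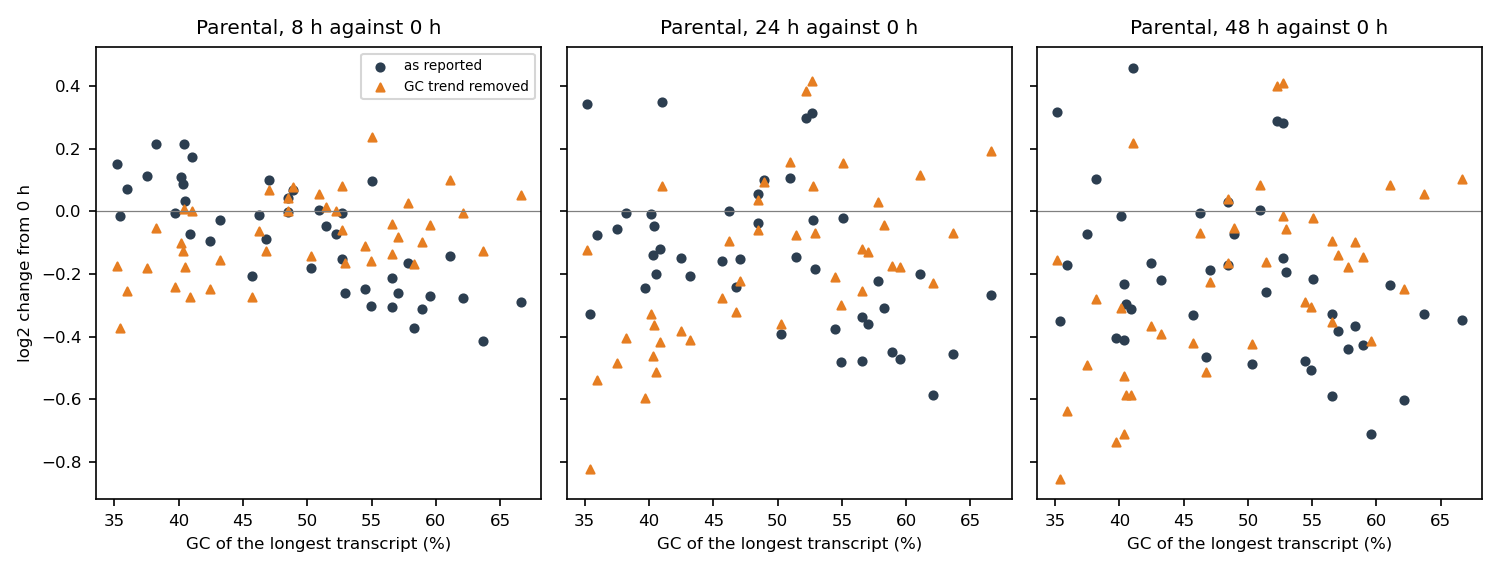
Log2 change from 0 h in the parental line against the GC content of the longest annotated transcript for the 42 members, as reported (circles) and with the genome-wide GC trend removed (triangles). As reported, GC-poor members such as DHX15 lie near or above 0 at 8 h and GC-rich members below it (rho -0.78).

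The difference between the lines was tested as an interaction, in which the parental change is subtracted from that in MYC-ER. At 8 h it was higher for 38 members (background 27.3%) and lower for 1, SF3B1 (background 27.8%). At 24 h it was higher for 35 (background 27.7%) and lower for 3 (background 26.8%), and at 48 h higher for 25 (background 23.6%) and lower for 4 (background 21.4%). Medians were 0.88, 0.92 and 0.32, against -0.08, 0.02 and 0.07 over all genes. Spearman's rho of the interaction with transcript length was -0.37, -0.48 and -0.55 over the members. Over 9784 genes of at least 10 CPM it was -0.25, -0.38 and -0.47. With GC content rho was -0.071, -0.11 and 0.0030 over the members and 0.23, 0.25 and 0.46 over those genes. The part of length in the interactions was not tested. SNRPD1 had the largest interaction at 8 and 24 h, 1.92 and 2.15 (SE 0.0873 and 0.0875), and SNRPA at 48 h, 1.73 (SE 0.114). SF3B1 was the lowest at each time, -0.63, -0.77 and -0.61 (adjusted p 6.06e-06, 3.88e-07 and 1.82e-05). The others called lower were PRPF3 (-0.34) and SNRNP70 (-0.28) at 24 h and PRPF8 (-0.39), DHX15 (-0.35) and SNRNP200 (-0.24) at 48 h. SNRNP70 was lost without MYC-ER 24 h replicate 1 (adjusted p 0.0509), and went to -0.18 without parental 0 h replicate 2. SNRNP200 was lost without any 1 of the 6 MYC-ER libraries at 0 and 48 h, parental 0 h replicates 1 and 3 and parental 48 h replicates 2 and 3 (without MYC-ER 0 h replicate 2, adjusted p 0.115). With the GC trend removed the members called lower at 8 h numbered 3, SF3B1, SNRNP70 (-0.55) and SF3A2, which turned from 0.28 to -0.21, and DHX15 turned to 0.19 at 48 h. SNRNP70 fell in both lines at 8 h, and its interaction there was not called without that removal (-0.096, SE 0.0932, adjusted p 0.409). Members called higher in MYC-ER and lower in the parental line numbered 10 at 8 h and 17 at each of 24 and 48 h. Of all genes, 3.8%, 6.22% and 4.95% met the same pair of calls at these times in turn. Such a pair needs a lower call in the parental line, and those calls were unstable. Fitted on the compared groups alone, parental lower calls of members numbered only 1, 7 and 10 at these times. Each member with such a pair of calls had a called interaction, but that is no separate evidence, because the interaction subtracts the parental change from the MYC-ER change.

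The other genes of the splicing machinery were followed in 5 lists of 85 genes in all, each of them tested. At 8 h in MYC-ER, 57 were higher (67.1%, background 32.2%) and 14 lower (16.5%, background 35.4%), with a median of 0.36. At 24 h these were 49 (57.6%, background 30.4%) and 13 (15.3%, background 31.2%), with a median of 0.27. At 48 h they were 16 (18.8%, background 23.4%) and 23 (27.1%, background 20.7%), near the background, with a median of -0.05. Factors that assemble snRNPs, the SMN complex and the methylosome among them, came closest to the core members, with 16 of 18 higher at 8 h and a median of 0.81. WDR77, the methylosome partner of the arginine methyltransferase that modifies Sm tails, rose by 1.68, and GEMIN8 of the SMN complex was -1.41. Among 25 other U1, U2 and tri-snRNP proteins, 17 were higher and 4 lower, from PHF5A of SF3B at 1.23 to PRPF39 of U1 at -1.36. Of 23 PRPF19-complex and catalytic-step factors, 18 were higher and 3 lower, from the prolyl isomerase PPIL1 at 1.95 to SYF2 at -0.64. Proteins of the minor spliceosome, which removes the rare U12-type introns, had 2 of 10 higher (20%; SNRNP25 at 0.74 was one) and 2 lower (20%; RNPC3 at -1.86), with a median of 0.08. Of 9 paralogues of Sm, LSm and U2AF proteins, 4 were higher, led by LSM12 at 1.15, and 4 lower, led by U2AF1L4 at -1.04, or 44.4% each way. Beside the 32.2% and 35.4% of all genes, nothing is read from the counts of these 2 short lists. The adjusted p of these 10 named genes at 8 h ran from 9.77e-18 for WDR77 to 5.05e-07 for SNRNP25. At 48 h the split of the 85 genes depended on scaling. It was 36 higher and 5 lower with the library total alone and 30 and 15 with the GC trend removed. Of the calls over all genes, 73.8% and 61.5% were higher under those settings, against 53.0% as reported.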

How the data were processed

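Poly(A)-selected, strand-specific libraries were sequenced as 150 bp paired-end reads, 3 libraries per lane, per the labels' protocols; which libraries shared a lane is not given in the sources used here. The authors deposited whole-number counts per gene, not normalised, 1 column per library. The submitters' processing notes name Trimmomatic 0.39, STAR, StringTie 2.1.3b and GRCh38, with no role or order; if StringTie made the table, the deposited counts are estimates from coverage, and depth limits are approximate. How shared reads and strand were treated is not given in the sources used here.

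Groups came from the labels. Genes passing filterByExpr (22158) were TMM-scaled, and a model with a mean for each group was fitted to the 24 libraries (edgeR 4.0.16 under R 4.3.3), tested by the two-sided quasi-likelihood test, and adjusted by Benjamini-Hochberg within each of 12 contrasts, taking 0.05 as threshold (common biological coefficient of variation 0.151). A member is called higher or lower where its adjusted p is under the threshold. Alternatives were other scalings, filters, DESeq2 1.42.0, a replicate block, removal of the GC trend, fits of the compared groups alone and leaving out each library. GC content and length came from the longest GENCODE 29 transcript, matched by identifier without version for all 42 members and 98.0% of tested genes. Promoters are RefSeq's, on GRCh38.p14. Same-numbered libraries of different groups correlated above 0.1 in their deviations in 25 of 84 pairs (-0.43 to 0.59), so the numbers were not taken to pair samples.

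Members and lists were chosen with earlier results of these data known. Named by rule were, in each complex, the members with the largest and smallest 8 h change in MYC-ER, elsewhere the largest called rises and falls and members called against the majority, and in each related list the largest rise and fall. Others are named to account for every count given, after their values were seen.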

Additional observations from a re-analysis of the deposited data

Results flagged for a closer look

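The 4-OHT response of most members differed between the lines by the test of the line by time interaction, which was called for 39 members at 8 h (38 higher and 1 lower, where 27.3% and 27.8% of all genes were), 38 at 24 h (35 and 3, where 27.7% and 26.8% were) and 29 at 48 h (25 and 4, where 23.6% and 21.4% were). Members called higher in MYC-ER and lower in the parental line numbered 10 at 8 h, 17 at 24 h and 17 at 48 h. Of all genes 3.8%, 6.22% and 4.95% were so called. These pairs of calls need a parental lower call. Fitted on the compared groups alone, parental lower calls of members numbered only 1, 7 and 10 at these times. SNRPD1 had the largest difference between the lines' log2 changes at 8 h, 1.92, and at 24 h, 2.15, and SNRPA at 48 h, 1.73. SF3B1 had the most negative, -0.63 at 8 h, -0.77 at 24 h and -0.61 at 48 h. A row outside the members, that of the near-identical U2AF1 copy, rose by 0.98 on the log2 scale in MYC-ER at 8 h (adjusted p 2.49e-13 by edgeR's quasi-likelihood test). It took 46.4 to 48.9% of the counts of both rows in every library, so its rise may not be separate from that of U2AF1.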

How the results depend on the processing

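Over all alternatives, 35 of the 39 member calls in MYC-ER at 8 h, 39 of 41 calls at 24 h and 17 of 26 calls at 48 h kept direction and side of the threshold, as did 35 of 37 between the lines at 0 h and 35 of 39, 33 of 38 and 23 of 29 interactions; in the parental line 0 of 14, 7 of 24 and 11 of 34 did, all by edgeR's quasi-likelihood test or DESeq2 with Benjamini-Hochberg adjustment. Depth was not limiting, since no member fell under 1068 counts. The library total as the only scaling moved the median of all genes at 48 h from 0.03 to 0.19, and upper-quartile scaling that at 8 h from -0.10 to -0.24.

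With the library total alone, members lower at 48 h were 1, members higher from 8 to 24 h 21, parental members higher at 8 h 5, related genes higher and lower at 48 h 36 and 5, and interactions lower at 8 h 2. With upper-quartile scaling, members lower at 48 h were 2, parental members higher at 8 h 1 and interactions lower at 8 h 2. With the GC trend removed, members higher from 8 to 24 h were 18, parental members lower at 8 h 7, members higher between lines at 0 h 6, interactions lower at 8 h 3, and related genes higher and lower at 48 h 30 and 15. Parental members higher at 8 h were 5 with DESeq2 size factors, 5 with at least 10 counts in every library, 5 by DESeq2's Wald test and 1 without a filter. Fitted on the compared groups alone, members lower at 48 h were 11 and related genes higher 28, parental members higher 0, 2 and 1 at 8, 24 and 48 h (by edgeR, with 1, 4 and 4 at an unadjusted p under 0.05) and lower 1, 7 and 10. The shares of higher calls over all genes moved under these settings too. In MYC-ER at 48 h they were 53.0% as reported, 73.8% with the library total alone and 61.5% with the GC trend removed. The causes were not tested. The replicate block left MYC-ER members at 37 higher and 2 lower at 8 h, 37 and 4 at 24 h and 20 and 6 at 48 h, and gave 1 higher and 13 lower in the parental line at 8 h; it ended 5 of 386 member calls.

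Leaving out 1 library at a time gave 1 to 6 parental members higher and 6 to 18 lower at 8 h, and 13 to 26 lower at 24 h, and no member call turned direction. Directions that turned with the GC trend removed were, as log2 changes: SNRNP70 (0.027) and PRPF19 (0.00079) in MYC-ER from 8 to 24 h; SF3A2 (0.051), U2AF2 (0.10) and LSM8 (-0.054) in the parental line at 8 h; SNRPB (0.030), SF3A2 (0.19), U2AF2 (0.12), DHX15 (-0.12), PRPF39 (-0.18) and SNRNP25 (0.025) at 24 h; and SNRNP70 (0.055), SF3A2 (0.10), U2AF2 (0.085) and DHX15 (-0.15) at 48 h. SF3A2 (0.080) and DDX23 (0.012) turned between the lines at 0 h, and the interactions of SF3A2 at 8 h (-0.21) and DHX15 at 48 h (0.19) too. With the library total alone U2AF2 turned at 48 h (0.0096), and PRPF38A (0.099) and PRPF19 (0.0027) from 8 to 24 h.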
